A study of Mus musculus with 16 samples.

Results

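Growth factor receptors of dendritic cells and 3 genes grouped here as progenitor-type were followed in the mouse spleen. The cells were immature and mature conventional type 1 dendritic cells (cDC1s). There were 9 genes among the 24421 of the deposited count table: Flt3, Kit, Csf1r, Csf2ra, Csf2rb and Csf2rb2 for the receptors, and Cd34, Lmo1 and Atp8b4 for the progenitor-type genes. They were picked by name, with their change on maturation in these same libraries known, and the progenitor-type genes because they fell strongly. Their maturation values, and the counts of calls given for them, are therefore a description and no test. The differences between genotypes, and between the maturation changes of the genotypes, were not used in the choice and were tested. All 9 genes passed the filter on low counts that left 11978 genes.

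Flt3, Kit and Csf1r are receptor tyrosine kinases. FLT3 ligand drives the production of dendritic cells and sustains them in the spleen, KIT binds stem cell factor and marks early progenitors and mast cells, and CSF1R serves monocytes and macrophages. Csf2ra encodes the ligand-binding alpha chain of the receptor for GM-CSF. Csf2rb encodes the beta chain, which pairs with the alpha chains for GM-CSF, IL-3 and IL-5 and signals through JAK2 and STAT5. Mice also carry Csf2rb2, a second beta chain gene used with the IL-3 receptor. CD34 is a sialomucin of progenitors and endothelium, LMO1 a LIM-domain bridging protein of transcription factor complexes, and ATP8B4 a P4-type ATPase of the phospholipid flippase family.

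RNA was sequenced in bulk from cDC1s of C57BL6 mice at steady state, sorted by flow cytometry. The 16 libraries form 4 groups of 4: Xbp1fl immature, Xbp1fl mature, Xbp1flIre1fl immature and Xbp1flIre1fl mature. XBP1 is a transcription factor of cells under endoplasmic reticulum stress, and IRE1, the product of Ern1, splices its mRNA. The mice carry floxed alleles of Xbp1, or of Xbp1 and the IRE1 gene, which per the labels were not deleted, so that both genotypes are described as wild type in function and no group lacks either gene. Ages, the gates of the sort and whether replicates stem from separate mice are not given, so p-values reflect only the spread among these libraries, which may be technical.

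Mature libraries held 13948232 to 16572576 counts and immature libraries 15083053 to 17000763. Ccr7, the chemokine receptor of migrating dendritic cells, averaged 9407 in mature and 177 in immature libraries, in CPM (counts scaled to a common library total, by TMM). It was lowest among the mature libraries in Xbp1flIre1fl mature libraries 2 and 4, at 6574 and 4988 CPM. Xbp1 averaged 122 CPM in Xbp1fl immature, 81.5 in Xbp1fl mature, 106 in Xbp1flIre1fl immature and 85.3 in Xbp1flIre1fl mature libraries, and Ern1 was read in all 16 libraries. The cDC1 markers were present, with Irf8 at 3603 ± 295 CPM (SD, n = 8) in immature and 2726 ± 343 (SD, n = 8) in mature libraries. With edgeR (adjusted p under 0.05), 5 of 10 cDC1 identity genes fell and 3 rose, or 6 and 1 with library sizes alone as the scaling, and all 7 maturation markers rose, where 34.2% of all genes tested fell and 33.4% rose. In bulk RNA, fewer cells of a type and less RNA per cell cannot be told apart.

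The beta chain genes lie beside each other on chromosome 15 (GENCODE M21 annotation of GRCm38, the assembly also called mm10), Csf2rb at chr15:78325752-78353847 on the plus strand and Csf2rb2 at chr15:78282507-78305721 on the minus strand, 20030 bases apart. Their coding sequences, of 2688 and 2634 bases, matched at 2503 of 2628 aligned bases (95.2%), and the longest identical run was 242 bases. The 90-base stretch below, coding bases 308 to 397 of Csf2rb and 311 to 400 of Csf2rb2, is shown because it holds 16 of the differences by which reads of the genes can be parted. Capitals mark the bases that differ.
Csf2rb: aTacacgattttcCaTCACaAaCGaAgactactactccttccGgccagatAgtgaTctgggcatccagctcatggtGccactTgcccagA
Csf2rb2: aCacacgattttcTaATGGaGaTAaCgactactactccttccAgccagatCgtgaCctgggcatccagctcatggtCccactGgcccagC
Of all stretches of 50 bases in the Csf2rb2 transcript, 19% also occurred in Csf2rb, and of those of 100 bases 7.20%. How the authors counted reads that fit both genes is not given in the sources used here, so the counts of each of these genes are uncertain where reads could be split.

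The other genes are Flt3 (chr5:147330741-147400489, minus strand), Kit (chr5:75574916-75656722, plus), Csf2ra (chr19:61223957-61228429, minus), Cd34 (chr1:194938819-194961279, plus), Lmo1 (chr7:109138572-109175207, minus) and Atp8b4 (chr2:126320973-126500674, minus). RefSeq promoter windows, from 250 bases before to 50 bases after the start, were matched for 7 of the 9 genes. Where a gene had several windows, only the first one listed was used. The Atp8b4 window lies wholly inside the gene as placed above, so its start is an internal one and not the outermost start at 126500674. Each was searched on both strands for GAGGAA, the core motif of PU.1, a transcription factor of myeloid cells. Windows of 4 genes that were higher or lower in mature cells are shown, as examples with and without this motif (RefSeq, GRCm38.p6). Those with the motif, in capitals, are Kit at chr5:75574737-75575036 on the plus strand, Atp8b4 at chr2:126491504-126491803 on the minus strand and Csf2ra at chr19:61228369-61228668 on the minus strand. The window of Cd34, at chr1:194938571-194938870 on the plus strand, has no match and no capitals.
Kit: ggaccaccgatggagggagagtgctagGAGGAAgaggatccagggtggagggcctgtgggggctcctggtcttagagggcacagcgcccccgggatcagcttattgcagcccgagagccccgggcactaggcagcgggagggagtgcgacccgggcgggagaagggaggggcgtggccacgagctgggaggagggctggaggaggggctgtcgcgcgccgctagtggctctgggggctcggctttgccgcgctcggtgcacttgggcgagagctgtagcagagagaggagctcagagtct
Atp8b4: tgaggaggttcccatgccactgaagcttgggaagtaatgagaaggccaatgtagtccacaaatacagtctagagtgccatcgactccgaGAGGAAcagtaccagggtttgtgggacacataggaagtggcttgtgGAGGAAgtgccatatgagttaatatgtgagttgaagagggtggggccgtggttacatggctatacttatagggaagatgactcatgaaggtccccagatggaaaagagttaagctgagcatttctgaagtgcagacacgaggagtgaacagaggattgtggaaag
Csf2ra: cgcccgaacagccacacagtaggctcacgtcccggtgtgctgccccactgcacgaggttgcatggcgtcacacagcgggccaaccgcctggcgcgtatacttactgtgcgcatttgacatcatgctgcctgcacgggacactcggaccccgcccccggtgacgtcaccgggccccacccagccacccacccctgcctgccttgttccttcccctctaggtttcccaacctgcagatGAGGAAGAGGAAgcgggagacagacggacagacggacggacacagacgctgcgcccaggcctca
Cd34: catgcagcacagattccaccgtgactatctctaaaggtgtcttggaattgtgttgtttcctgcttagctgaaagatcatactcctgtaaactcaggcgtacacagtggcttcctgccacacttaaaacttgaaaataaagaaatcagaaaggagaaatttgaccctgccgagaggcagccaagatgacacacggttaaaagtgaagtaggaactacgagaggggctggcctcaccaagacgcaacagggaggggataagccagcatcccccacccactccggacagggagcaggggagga
The motif stood once in the Kit window, 223 bases before the start, and in 2 places each in the windows of Atp8b4, Csf2ra and Csf2rb2. It was in 27.4% of all 17224 such windows. The Flt3, Cd34 and Lmo1 windows held no match. The STAT motif TTCNNNGAA, in 8.18% of windows, and the GATA motif TGATAA, in 7.49%, were each found in Csf2rb2 alone among these genes. The RUNX motif TGTGGT (14.6% of windows) and an IRF motif, GAAA and again GAAA after 2 bases (3.38%), were in none of the 7. A match is a description of these letters and not of binding, and genes higher and lower in mature cells both held the PU.1 type motif.

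Mature and immature cDC1s differed in opposite directions for different receptors. Flt3 did not part the stages, Kit was 1.39-fold lower in mature cells, and the GM-CSF receptor genes were higher, Csf2ra 1.32-fold, Csf2rb 1.95-fold and Csf2rb2 2.17-fold. Csf1r averaged 1.63-fold higher with overlapping libraries. The progenitor-type genes were lower in mature cells, Cd34 4.21-fold, Lmo1 2.81-fold and Atp8b4 2.88-fold. In the fit over all genes (edgeR quasi-likelihood, Benjamini-Hochberg, adjusted p under 0.05) 4 of the 9 genes fell among the calls that were higher and 4 among those that were lower, in a comparison in which 67.6% of all genes tested were called, 33.4% higher and 34.2% lower. Within Xbp1fl cells 3 were called higher and 4 lower, where 56.8% of genes were called (28.4% higher, 28.3% lower), and within Xbp1flIre1fl cells 4 and 4, where 53.5% were (27.4% higher, 26.1% lower). These shares are given for scale and nothing is read from the counts, since the choice of the genes used this contrast.

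Flt3 read 509, 496, 489 and 533 CPM in Xbp1fl mature libraries 1 to 4 and 516, 523, 512 and 452 in Xbp1fl immature libraries 1 to 4. In Xbp1flIre1fl cells it read 464, 529, 419 and 463 CPM in mature and 495, 471, 461 and 486 in immature libraries. The stages overlapped throughout, and the means were 487.9 ± 38.0 CPM in mature and 489.7 ± 26.7 in immature libraries (SD, n = 8 each). The log2 difference was -0.01. With upper quartile scaling it was -0.13 and with library sizes alone -0.23, close to the median of all genes under the same scalings (-0.01 by TMM, -0.13 and -0.23). Relative to all genes, Flt3 therefore stood at the median under each of the 3 scalings.

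Kit read 305, 289, 252 and 268 CPM in Xbp1fl mature libraries and 401, 388, 408 and 358 in Xbp1fl immature ones. The Xbp1flIre1fl libraries read 261, 336, 225 and 295 CPM in mature and 411, 358, 387 and 400 in immature libraries. Every mature library was below every immature one, and the highest mature library, Xbp1flIre1fl mature 2, stood at 336 CPM against a lowest immature value of 358. The log2 difference was -0.48 in Xbp1fl and -0.48 in Xbp1flIre1fl cells. Across the 8 mature libraries Kit was lower where Ccr7 was higher (Pearson r = -0.80 on the log2 scale, n = 8, libraries that share a sort and differ in both genes' RNA). The library with the most Ccr7, Xbp1flIre1fl mature 3 with 13420 CPM, had the least Kit.

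Mast cells also express Kit, and both mast cells and basophils express the beta chains. Their 8 markers summed to 6.17 to 15.6 CPM in mature and 6.40 to 15.2 CPM in immature libraries, and 0 of the 5 tested were called. Hdc, the histamine-forming enzyme and the most abundant of them, averaged 6.44 CPM in mature and 6.60 in immature libraries. Tpsb2, a mast cell tryptase under the filter and named after its values were seen, had 1 count in all mature and 58 in all immature libraries. The part of mast cell RNA in the Kit values was not tested.

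**Figure D1:**
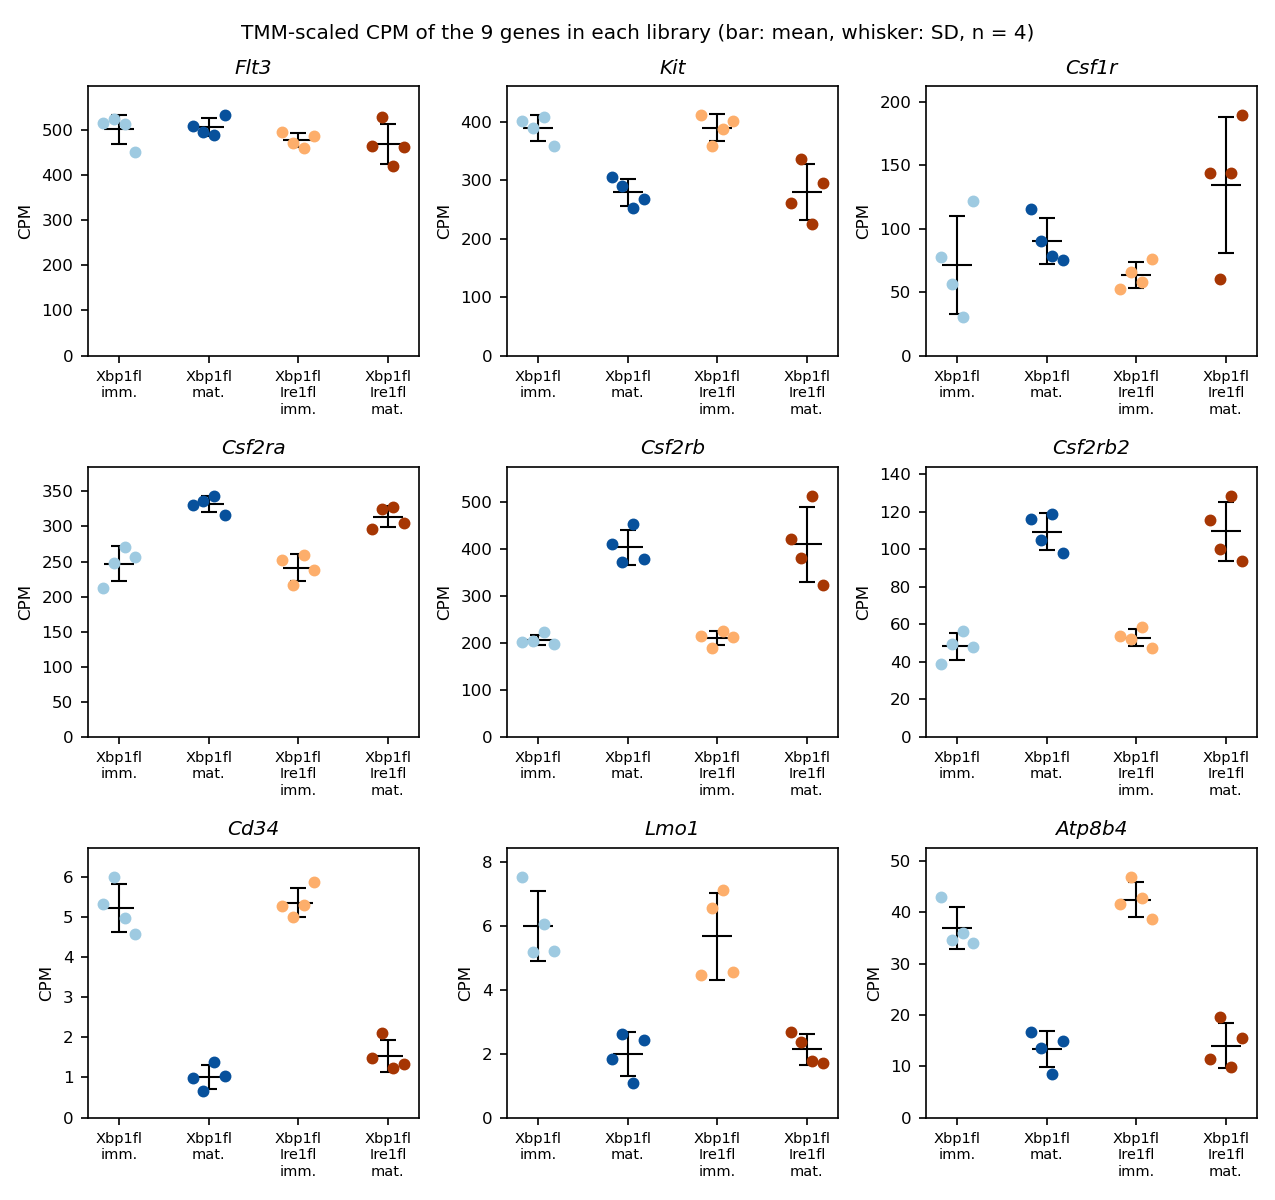
CPM of the 9 genes (vertical axis, from 0, a scale of its own in each panel) in each of the 16 libraries (points), with the mean and SD of each group of 4 (imm., immature; mat., mature). Kit, Cd34, Lmo1 and Atp8b4 lie lower, and Csf2ra, Csf2rb and Csf2rb2 higher, in all mature than in all immature libraries, while Flt3 and Csf1r overlap.

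Csf2ra, the alpha chain of the GM-CSF receptor, read 330.1, 337, 344 and 317 CPM in Xbp1fl mature and 212, 248, 271 and 257 in Xbp1fl immature libraries. In Xbp1flIre1fl cells the values were 297, 325, 327.5 and 306 CPM in mature and 253, 216, 259 and 238 in immature libraries. The lowest mature library, at 297 CPM, was above the highest immature one, at 271. Mature minus immature, the log2 difference was 0.43 in Xbp1fl and 0.38 in Xbp1flIre1fl cells. With library sizes alone as the scaling it was 0.18 as the mean of both genotypes, against -0.23 for the median gene, and 0.16 and no longer called within Xbp1flIre1fl cells.

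Csf2rb read 409, 372, 452 and 378 CPM in Xbp1fl mature and 202, 203, 222 and 197 in Xbp1fl immature libraries. In Xbp1flIre1fl cells it read 421, 379, 512 and 324 CPM in mature and 214, 189, 225 and 211 in immature libraries. The groups were far apart, with a gap from 225 to 324 CPM between the stages. This made log2 differences of 0.97 in Xbp1fl and 0.96 in Xbp1flIre1fl cells. Among mature libraries Csf2rb was higher where Ccr7 was higher (Pearson r = 0.89, log2 scale, n = 8), the opposite sense to Kit.

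Csf2rb2 read 116, 105, 119 and 97.9 CPM in Xbp1fl mature and 38.6, 49.6, 56.5 and 47.9 in Xbp1fl immature libraries. The Xbp1flIre1fl libraries read 116, 100.1, 128.5 and 93.9 CPM in mature and 53.5, 52.2, 58.4 and 47.4 in immature libraries. No mature library came below 93.9 CPM and no immature library above 58.4. Log2 differences were 1.18 in Xbp1fl and 1.05 in Xbp1flIre1fl cells. Csf2rb2 made up 19.5% ± 1.68 of the counts of both beta chain genes in immature and 21.3% ± 0.860 in mature libraries (SD, n = 8 each), with ranges of 16.1% to 21.6% and 20.1% to 22.5% that overlap. The beta chain genes were therefore higher in mature cells in nearly the same proportion, with the limit on shared reads given above. Markers of other cells that carry these receptors or other leukocyte genes also differed between stages. The 6 B cell markers all rose, from a summed 66.2 to 117 CPM in immature to 240.2 to 806 CPM in mature libraries, and 4 of 7 tested cDC2 markers rose, with a sum over the 8 listed of 220.5 to 265 and 322.5 to 467.5 CPM. None of these was at 0 in all libraries of a stage. Neutrophil and eosinophil markers summed to 6.23 to 44.2 CPM in immature and 3.57 to 45.0 in mature libraries. Their part in the receptor values was not tested.

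Csf1r (chr18:61100598-61132149, plus strand, same annotation) read 115, 90.7, 78.9 and 75.6 CPM in Xbp1fl mature and 77.7, 56.7, 30.7 and 122 in Xbp1fl immature libraries. In Xbp1flIre1fl cells it read 144, 60.8, 144 and 189.9 CPM in mature and 52.9, 65.6, 58.4 and 76.5 in immature libraries. The stages overlapped in both genotypes, and libraries of 1 group differed widely, from 30.7 to 122 CPM in Xbp1fl immature cells. Within Xbp1fl cells the log2 difference was 0.33, and it was 0.08 without immature library 3, the lowest, and 0.71 without immature library 4, the highest. Within Xbp1flIre1fl cells it was 1.09, a call lost in 6 of 27 alternatives. As the mean of both genotypes it was 0.71, and this call was lost without Xbp1fl mature library 1 (0.64), Xbp1fl immature library 2 (0.66), Xbp1flIre1fl mature library 3 (0.69) or 4 (0.60), or Xbp1flIre1fl immature library 1 (0.67), without the filter on low counts (0.69), and with either other scaling (0.59 by upper quartile, 0.48 by library sizes).

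Csf1r moved with macrophage genes from library to library. The 2 genes most like it over the 16 libraries were C1qa and C1qc, complement genes of macrophages (Pearson r = 0.98 for each). Its correlation with summed C1qa, C1qb and C1qc was 0.98, and also 0.98 for deviations from the group means, on the log2 scale with n = 16. The C1q sum ran from 14.8 CPM in Xbp1fl immature library 3, the lowest in Csf1r, to 164 CPM in Xbp1flIre1fl mature library 4, the highest in Csf1r. The 11 monocyte and macrophage markers summed to 505 to 824 CPM in mature and 324 to 567 in immature libraries, none was at 0, and 5 rose and 1 fell with maturation (adjusted p under 0.05, edgeR quasi-likelihood). The one that fell was Cd68, which was also the most abundant per kilobase of exon, and the median log2 difference of the list was 0.48. The higher sum came from Vcam1, an adhesion molecule that rose from 80.5 to 348 CPM. The other 10 markers summed to 314 ± 41.9 CPM in immature and 310.3 ± 69.2 in mature libraries (SD, n = 8 each). Within these 10, opposite changes offset each other. Cd68 fell from 222.1 to 145.9 CPM. C1qa rose from 11.52 to 25.11 CPM, C1qb from 15.43 to 34.98, C1qc from 14.19 to 32.1 and Adgre1 from 18.17 to 33.48. Their adjusted p were 0.0112, 0.00564, 0.0119 and 0.00211 (same test). The remaining 5 markers did not pass. The part of macrophage RNA in the Csf1r values was not tested.

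**Figure D2:**
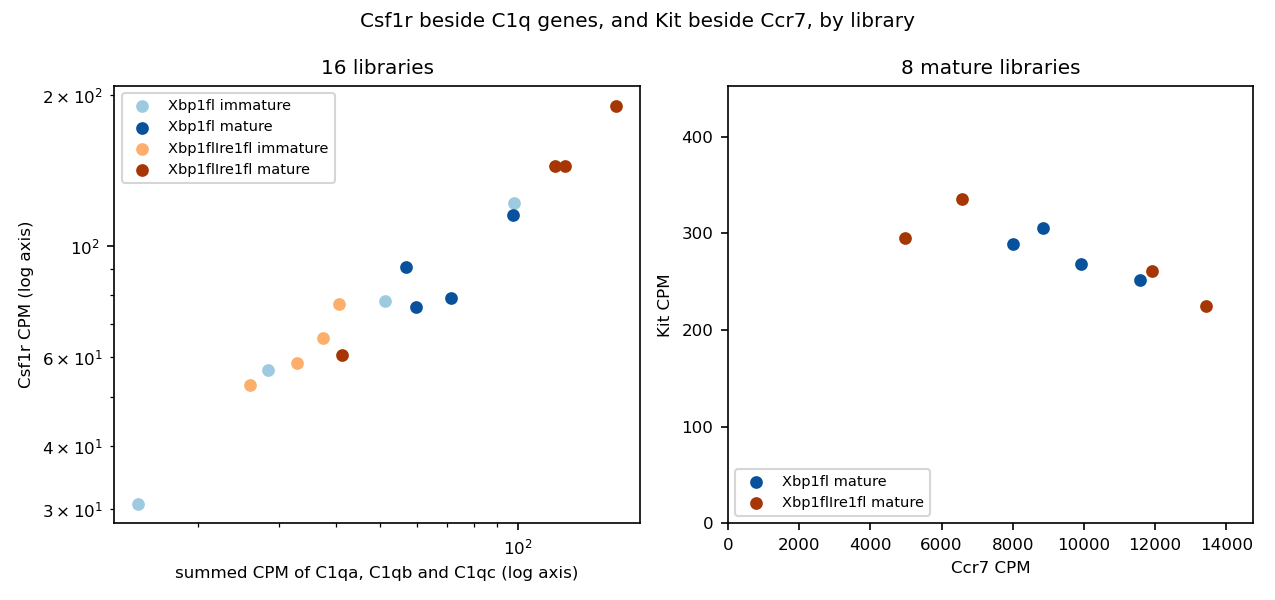
Left, Csf1r CPM against the summed CPM of the C1q genes in 16 libraries, both axes logarithmic. Right, Kit CPM against Ccr7 CPM in the 8 mature libraries, both axes from 0; points are libraries coloured by group. Csf1r follows the C1q sum within and between groups (r = 0.98), and Kit is lowest at 225 CPM in the library with the most Ccr7.

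Cd34 was near the lower end of what these libraries could count. It read 1.00, 0.655, 1.37 and 1.04 CPM in Xbp1fl mature libraries, from 13, 10, 20 and 15 counts, and 5.33, 6.0, 4.97 and 4.57 in Xbp1fl immature libraries, from 94, 103, 87 and 85 counts. The Xbp1flIre1fl libraries read 1.48, 2.11, 1.23 and 1.32 CPM in mature and 5.28, 4.99, 5.29 and 5.86 in immature libraries. All mature libraries together held 148 Cd34 counts and all immature ones 740. No library of one stage reached the other, with 2.11 CPM as the highest mature and 4.57 as the lowest immature value. The log2 difference was -2.35 in Xbp1fl and -1.79 in Xbp1flIre1fl cells.

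Endothelium is the other main source of Cd34 in spleen. Of its 6 markers, Emcn was at 0 in every library, and the sum was 37.5 to 63.7 CPM in mature and 51.8 to 69.4 CPM in immature libraries. Of the 4 tested, 1 rose, 1 fell and 2 did not pass. Pecam1, an adhesion molecule also made by many white cells and most of the sum, fell 1.44-fold (adjusted p = 3.3e-04, edgeR quasi-likelihood, Benjamini-Hochberg). The one that rose, named after its values were seen, was Kdr, a VEGF receptor, from 1.45 to 5.34 CPM (adjusted p = 4.4e-05, same test). The part of endothelial RNA in the Cd34 values was not tested.

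Lmo1 read 1.84, 2.62, 1.1 and 2.43 CPM in Xbp1fl mature and 7.54, 5.18, 6.05 and 5.22 in Xbp1fl immature libraries. In Xbp1flIre1fl cells it read 2.70, 2.38, 1.77 and 1.70 CPM in mature and 4.47, 6.56, 7.13 and 4.57 in immature libraries. These came from 240 counts in all mature and 820 in all immature libraries. The stages did not overlap, and the log2 difference was -1.58 in Xbp1fl and -1.41 in Xbp1flIre1fl cells.

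Atp8b4 read 16.7, 13.6, 8.45 and 14.9 CPM in Xbp1fl mature and 42.9, 34.6, 36.0 and 34.0 in Xbp1fl immature libraries. The Xbp1flIre1fl libraries read 11.4, 19.6, 9.80 and 15.4 CPM in mature and 41.5, 46.9, 42.7 and 38.6 in immature libraries. The highest mature library, at 19.6 CPM, was well under the lowest immature one, at 34.0. Log2 differences were -1.46 in Xbp1fl and -1.59 in Xbp1flIre1fl cells. Among the 8 mature libraries Atp8b4, like Kit, was lower where Ccr7 was higher (Pearson r = -0.74, log2 scale, n = 8), while for Cd34 and Lmo1 r was -0.10 and -0.12.

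Of the 9 genes, 3 were higher and 4 lower in every mature than in every immature library, in a comparison where 33% of all genes tested were so parted (18% higher, 15% lower). The same 3 and 4 counts held within each genotype, where 53.9% of genes in Xbp1fl cells (26.8% higher, 27% lower) and 43.7% in Xbp1flIre1fl cells (22.6% higher, 21.1% lower) were parted. The replicate numbers were also taken to pair mature with immature libraries of a genotype. In these 8 pairs Kit, Cd34, Lmo1 and Atp8b4 were lower in 8 of 8 mature libraries and Csf2ra, Csf2rb and Csf2rb2 higher in 8 of 8. Csf1r was higher in 6 of 8 and Flt3 in 2 of 8. The median log2 ratio of a pair was -2.0 for Cd34 (range -2.97 to -1.19), -1.39 for Lmo1 (-2.34 to -0.70), -1.35 for Atp8b4 (-2.11 to -1.18) and -0.43 for Kit (-0.78 to -0.09).

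**Figure D3:**
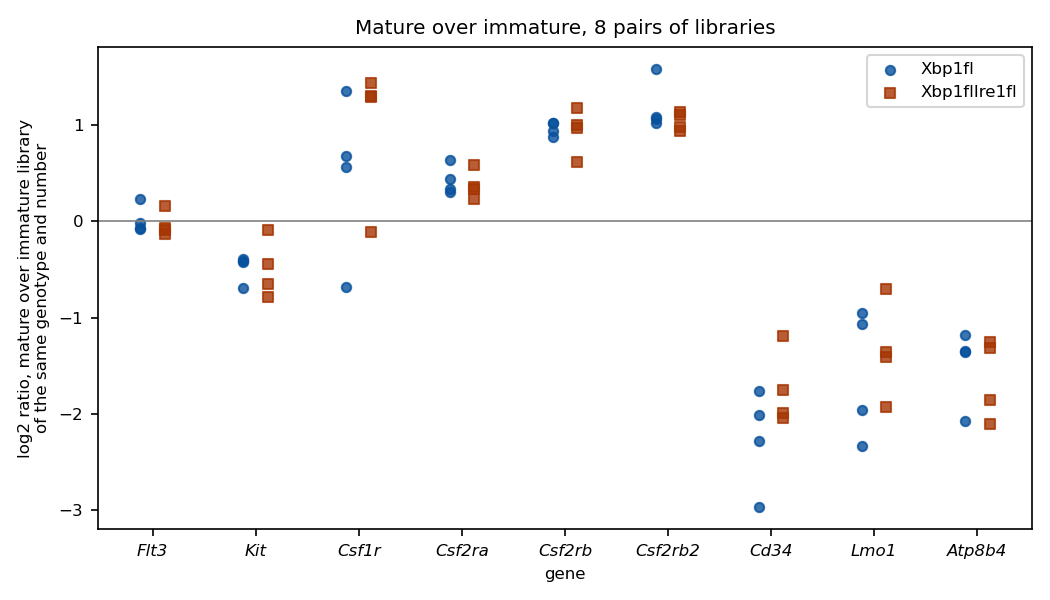
Log2 ratio of CPM, mature over the same-numbered immature library of the same genotype (vertical axis), for each gene; circles are the 4 Xbp1fl and squares the 4 Xbp1flIre1fl pairs. Csf2ra, Csf2rb and Csf2rb2 are above 0 in 8 of 8 pairs, Kit, Cd34, Lmo1 and Atp8b4 below 0 in 8 of 8, and Csf1r spreads from -0.69 to 1.44.

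Levels were compared between genes as CPM per kilobase of exon, where the length is the union of all annotated exons of a gene. This union can be longer than the transcripts present, by an amount that may differ between genes. The order of the genes, their ranks and the ratios between them depend on these lengths. In immature cells Csf2ra (85.1 CPM per kb) and Flt3 (79.3) came first with overlapping libraries, followed by Kit (43.7) and Csf2rb (28.6). Csf1r (11.7) and Csf2rb2 (10.7) overlapped. Atp8b4 (5.96) lay below Csf2rb2 without overlap but within the range of Csf1r, whose lowest library was at 5.32, and Lmo1 (3.76) and Cd34 (0.725) came last without overlap. In mature cells Csf2ra stood alone at 112 CPM per kb, Flt3 (79.0) and Csf2rb (55.8) overlapped, and Kit (31.3), Csf2rb2 (23.1) and Csf1r (19.5) formed a chain of overlapping neighbours. Csf2rb thus passed Kit in the order. Atp8b4 (2.06) overlapped Lmo1 (1.33), and Cd34 (0.175) was below both.

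Among 11889 genes with a length, Csf2ra in immature cells was in the top 3.87% per kilobase, Flt3 in the top 4.26% and Kit in the top 8.46%, while Cd34 stood at rank 9625. The ratio of Kit to Flt3 per kilobase was 0.551 ± 0.0241 in immature and 0.396 ± 0.0357 in mature libraries, and that of Csf2rb to Csf2ra was 0.337 ± 0.0219 and 0.496 ± 0.0665 (SD, n = 8 each). Neither ratio depends on the scaling of the libraries.

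**Figure D4:**
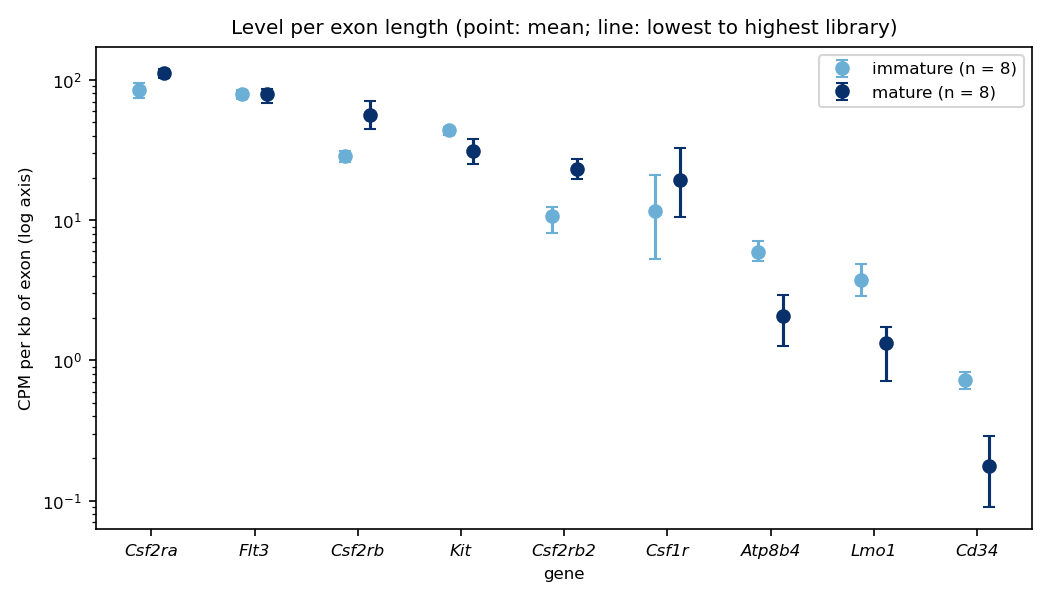
CPM per kilobase of exon (logarithmic vertical axis) of the 9 genes, ordered by their mean over 16 libraries, in 8 immature and 8 mature libraries; points are means and lines run from the lowest to the highest library. The means of the receptors lie above those of the progenitor-type genes in both stages, from Csf2ra at 112 to Cd34 at 0.175 in mature cells. In immature cells the lines of Csf1r and Atp8b4 overlap.

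Whether the floxed genotype altered these genes was tested in each stage. None of the 9 genes was called in either stage, where 0.134% of all genes were called in immature and 0.142% in mature cells (edgeR quasi-likelihood, adjusted p under 0.05). In immature cells the log2 difference, Xbp1flIre1fl minus Xbp1fl, was within -0.18 (Csf1r) and 0.20 (Atp8b4), and 0 of the 9 had an unadjusted p under 0.05. For all 9 genes the libraries of the genotypes overlapped in both stages, where 4.41% of genes in immature and 2.56% in mature cells did not. In mature cells Cd34 differed most, 1.54 ± 0.396 CPM in Xbp1flIre1fl and 1.02 ± 0.294 in Xbp1fl cells (SD, n = 4 each), a log2 difference of 0.60 with a 95% interval of 0.09 to 1.11. Its adjusted p was 0.674 by the edgeR quasi-likelihood test. Csf1r had a difference of 0.58 with an interval of -0.21 to 1.37 (adjusted p = 0.894, same test).

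For the abundant receptors the intervals were narrow. In mature cells the interval was -0.26 to 0.04 for Flt3, -0.21 to 0.21 for Kit, -0.24 to 0.08 for Csf2ra and -0.20 to 0.25 for Csf2rb. For Lmo1, with few counts, it was -0.48 to 0.67. The maturation change itself was called different between genotypes for none of the 9 genes and for 0 of 11978 genes tested (smallest adjusted p = 1, edgeR quasi-likelihood). There were 329 genes at an unadjusted p under 0.05, and 0 were called also by DESeq2 and by limma. This fit, which gave the intervals below, held no replicate block. With a block, shared by all groups or within genotype, 0 genes were called as well. A missing call does not show that the changes were equal. The interval of the interaction was -0.29 to 0.30 for Kit, -0.09 to 1.21 for Cd34 and -0.36 to 1.88 for Csf1r.

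**Figure D5:**
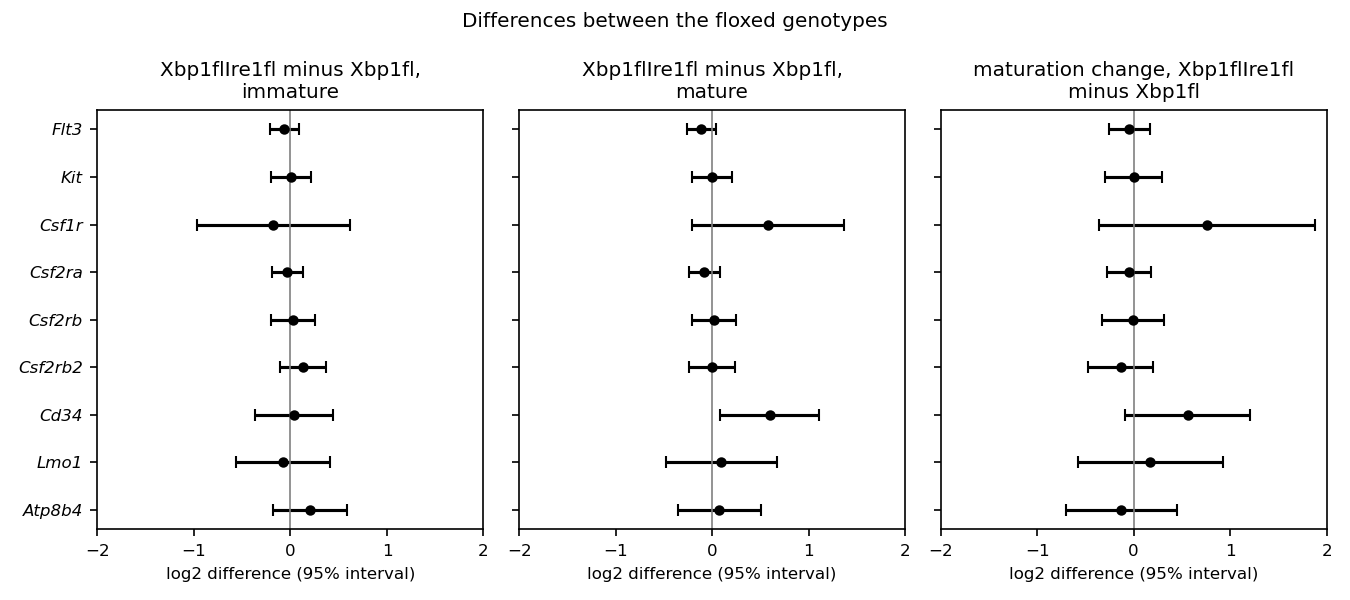
Log2 differences with 95% intervals (horizontal axes) for the 9 genes: Xbp1flIre1fl minus Xbp1fl in immature cells (left), in mature cells (middle), and the difference of the maturation changes (right). Intervals include 0 except for Cd34 in mature cells (0.09 to 1.11, unadjusted).

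Most ligands of these receptors had few or no counts. Of 7 ligand genes, Il3 and Il5 had 0 counts in all 16 libraries, and Kitl, Il34 and Csf2 stayed under the filter with at most 33 counts over 8 libraries. Csf1, a ligand of CSF1R, averaged 3.64 ± 2.64 CPM in immature libraries and rose to 37.9 ± 12.3 in mature ones (SD over 8 libraries; adjusted p = 1.3e-06, edgeR quasi-likelihood). Flt3l averaged 3.11 CPM in immature and 2.75 in mature libraries (adjusted p = 0.34). Of 7 other tested haematopoietic growth factor receptors 4 rose, 1 fell and 2 did not pass, with a median log2 difference of 0.60. Il7r, the IL-7 receptor alpha chain, rose from 1.95 to 18.8 CPM, and Il3ra, whose product pairs with the beta chains, from 8.65 to 13.1 CPM. Il6st, the shared gp130 chain, was at 113 and 107 CPM and did not pass by TMM (log2 difference -0.08, adjusted p = 0.245), but was called lower by the other scalings (-0.20 by upper quartile, -0.31 by library sizes).

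Downstream of the receptors the genes went both ways. Of 28 tested genes of proximal signalling 14 rose, 8 fell and 6 did not pass, with a median log2 difference of 0.08 against -0.01 over all genes tested. With library sizes alone the split was 12 higher and 14 lower. Stat5a, a main transducer of the beta chain, rose from 43.1 ± 2.87 to 152 ± 33.9 CPM and Stat3 from 274 ± 15.6 to 559 ± 67.1 CPM (SD, n = 8 each).

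Of 22 negative regulators 10 rose, 6 fell and 6 did not pass, with a median log2 difference of 0.15. Cblb, a ubiquitin ligase, rose 5.72-fold, Dok1, an adaptor that damps kinase signals, 6.31-fold, and Ptpn6, the phosphatase SHP-1, 1.52-fold. With either other scaling 10 of the 22 were lower. Of 20 genes known to respond to STAT5 or ERK, 12 rose, 4 fell and 4 did not pass, with a median of 0.66. With library sizes alone 10 rose and 5 fell. Over all genes tested 33.4% rose and 34.2% fell by TMM. Socs2, a feedback inhibitor that is also one of the maturation markers, rose from 1.77 to 185 CPM, Ccnd2, a D-type cyclin, from 12.3 to 61.6 CPM, and Dusp5, an ERK phosphatase, from 291 to 1358 CPM. The 4 that fell, named after their values were seen, were Egr1 (log2 difference -0.57), Spry1 (-0.49), Bcl2 (-0.48) and Dusp6 (-0.44). None of the genes of these lists was called in the interaction or in either genotype comparison.

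Progenitor genes at large went both ways. Cd34, Lmo1 and Atp8b4 were picked because they were lower, so their shared direction makes no contrast with this list. Of 28 genes listed for haematopoietic progenitors, 18 were expressed enough to test, and of these 7 rose, 5 fell and 6 did not pass, with a median log2 difference of 0.13 by TMM and -0.09 with library sizes. Myb, a transcription factor of progenitor growth, rose from 10.7 ± 2.05 to 60.6 ± 14.2 CPM and Sox4 from 3.83 ± 1.04 to 31.6 ± 10.2 CPM (SD over 8 libraries; edgeR quasi-likelihood, adjusted p of 1.7e-09 and 1.4e-08). Procr, the protein C receptor, rose 1.72-fold. Without Xbp1flIre1fl mature libraries 2 and 4, a check added after the data were seen, 3 of the 18 were lower. Progenitor-type is thus only a group name for Cd34, Lmo1 and Atp8b4, and the listed genes had no common direction.

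Relatives and partners of the 3 genes were also mixed. Of 9 tested LMO family members and partners 2 rose, 4 fell and 3 did not pass (median -0.31), with Tcf3, an E protein, 1.57-fold higher and Ssbp4, a partner of LDB1, 1.73-fold lower in mature cells. Of 11 tested P4-ATPases and partners 3 rose, 4 fell and 4 did not pass (median 0.01). Atp11a rose 3.05-fold, Atp8b2, a relative of Atp8b4, fell 1.36-fold, and Tmem30a, the common partner subunit, was at 193 and 190.4 CPM by TMM, a difference of -0.02 that was called lower by the other scalings. With library sizes alone 7 of the 11 were lower. Of the sialomucins, Selplg rose 1.74-fold to 1298 CPM and Spn fell 1.47-fold to 6.33 CPM.

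Of 12 tested transcription factors known to act on myeloid growth factor receptor genes, 3 rose, 6 fell and 3 did not pass, with a median log2 difference of -0.13. Etv6 rose 1.54-fold, and Irf8, which cDC1s need, fell 1.32-fold. All 8 cell cycle genes fell, by a median of -0.84 on the log2 scale, among them Mcm3 (1.81-fold) and Ccnb2 (2.42-fold). These lists were chosen with results of these data known, so their counts are no independent evidence of a direction.

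The genes with the most similar course over the 16 libraries were found by Pearson correlation of log2 CPM, and much of any such r reflects the difference between stages that all these libraries share. For Kit they were Nsmaf and Pstpip1 (0.98 each), for Csf2ra Dnase1l3 and Zmiz2 (0.96 each), for Csf2rb Map4 and Rasa4 (0.99 each) and for Csf2rb2 2210039B01Rik and Samd4b (0.99 each). For Cd34 they were Timm50 (0.98) and Tomm40l (0.97), for Lmo1 Pkn3 and Egln1 (0.96 each) and for Atp8b4 Prkar2b and Hnrnpab (0.98 each). Flt3, whose stages overlapped, had lower values, Plekha1 at 0.87 and Cgref1 at 0.80. Of the 18 genes so named for the 9, 5 were also among the 2 most alike when deviations from the group means were compared and 4 when ranks were compared, and C1qa and C1qc were named for Csf1r by all 3 measures.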

How the data were processed

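The 9 genes, the gene lists and the tests were chosen with earlier results of these data known. The authors deposited raw read counts per gene symbol for 24421 genes in 16 libraries, and a table of log2 values for 11843 genes that was used here only as an alternative. Per the submitters' processing notes, FastQC 0.11.4, Trimmomatic 0.35, TopHat2 2.1.0, SAMtools 0.1.19, limma 3.42.2 and the build mm10 were used; the read counter, annotation and strandedness are not given in the sources used here, so reads of overlapping antisense genes may not be told apart.

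edgeR 4.0.16 in R 4.3.3 was run on the counts: filterByExpr kept 11978 genes, libraries were scaled by TMM, and a robust quasi-likelihood fit with 1 mean per group and 12 residual degrees of freedom gave F-tests, with Benjamini-Hochberg adjustment over all genes and calls at 0.05. Log2 CPM used a prior count of 2. The fit was tested on simulated data. Alternatives used DESeq2 1.42.0 and limma 3.58.1, other scalings and filters, a replicate block, and leaving out each library. Within a genotype, deviations from the group means correlated over 0.1 in each of the 4 same-numbered pairs of mature and immature libraries (0.29 to 0.54 in Xbp1fl, 0.24 to 0.56 in Xbp1flIre1fl, 9187 genes). Differently numbered pairs ran from -0.35 to 0.11 in Xbp1fl and from -0.29 to 0.21 in Xbp1flIre1fl. Between genotypes, differently numbered libraries reached 0.37 in mature and 0.40 in immature cells. The numbers were taken to pair libraries within a genotype, which these values alone do not establish. No 2 libraries of a group agreed within sampling noise (chi-square per degree of freedom 5.35 to 60.8). Named list genes were the 2 with the smallest adjusted p and the most abundant per kilobase, and for lists of other cell types the most abundant; genes alike were the 2 with the highest r. One gene that this rule names is not reported here.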

Additional observations from a re-analysis of the deposited data

Results flagged for a closer look

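Of 36 groups of 4 libraries examined, 4 for each of the 9 genes, 1 held a library set apart from the others: Flt3 in Xbp1fl immature library 4 was 451.9 CPM against 512 to 523 CPM in the other 3. The gap was 0.849 of the group's range, above the critical value of 0.829. Chance gives such a gap in about 1 in 20 groups. The same library had the most Csf1r of the immature libraries (122 CPM) and the highest macrophage marker sum among them (567 CPM). Its Kit, at 357.9 CPM, was level with the 358.1 CPM of Xbp1flIre1fl immature library 2, where Csf1r was 65.6 CPM.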

How the results depend on the processing

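As a description, since the genes were chosen on this contrast, of the 9 genes on maturation as the mean of both genotypes Kit, Csf2ra, Csf2rb, Csf2rb2, Cd34, Lmo1 and Atp8b4 kept direction and call in all 26 alternatives, Csf1r lost its call in 8, and Flt3 was called lower with upper quartile scaling (-0.13) and library sizes (-0.23). None of the 9 was called in the interaction or between genotypes under any alternative. Genes called on maturation numbered 7765 to 8807, and 8347 with the replicate block within genotype, which changed no call of the 9. A change of sign counts here where either value was called: with library sizes Flt3 within Xbp1fl turned to -0.22 and Bst2 to -0.20, and Plekha1 turned to -0.21, and to -0.11 with upper quartile scaling. Genes called between genotypes in immature cells were 16, 40 with DESeq2 and 11 to 21 leaving out a library. In mature cells they were 17, 33 with DESeq2, 11 fitting only the 2 groups, 15 to 30 leaving out a library, the most without Xbp1flIre1fl mature 2, and 152 without Xbp1flIre1fl mature libraries 2 and 4, chosen after seeing the data; the cause was not tested. The split of all maturation calls was 3995 higher and 4100 lower by TMM, 3213 and 5237 by upper quartile and 2716 and 6091 by library sizes. Depth limits Cd34 most, at 10 to 31 counts per mature library.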
